A study of Homo sapiens with 6 samples.

Results

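The core genes of the cellular response to low oxygen were examined in CELF1 RIP-Seq data from 2 human melanoma cell lines. The set comprised 9 genes, of 13140 protein-coding genes with at least 1 listed exon bin: HIF1A, EPAS1, ARNT, VHL, EGLN1, EGLN2, EGLN3, VEGFA and SLC2A1. They were chosen by function, and their bins were those whose centre fell in an exon of the gene (GRCh37) on its own strand. CELF1 (also CUGBP1) was pulled down with an antibody after formaldehyde fixation of 2 established melanoma lines, SK-Mel-103 and UACC-62, grown in medium with serum. The labels name no genetic change, no treatment and no low-oxygen exposure. RNA recovered with CELF1 (IP) was compared with RNA of the same lysate (input) in 1 SK-Mel-103 pair (replicate 1) and 2 UACC-62 pairs (replicates 1 and 3), 6 samples in all. The UACC-62 pairs are described as biological replicates, whereas SK-Mel-103 had none. Series of 3 values below follow the order SK-Mel-103, UACC-62 replicate 1, UACC-62 replicate 3. No pulldown with a control antibody was analysed here.

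CELF1 is an RNA-binding protein that recognises GU-rich elements (GREs), mainly in 3′ UTRs, and acts on the decay, splicing and translation of its targets. In cells with enough oxygen, the prolyl hydroxylases encoded by EGLN1, EGLN2 and EGLN3 modify the alpha subunits of hypoxia-inducible factor, encoded by HIF1A and EPAS1. The VHL protein then recruits a ubiquitin ligase that leads to their breakdown. When oxygen is low, the alpha subunits persist, pair with ARNT and switch on genes such as VEGFA, a growth factor for blood vessels, and SLC2A1, the glucose transporter GLUT1. In pigment cells and melanoma this pathway is known for its ties to metabolism and blood vessel growth.

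Each list held only the 20-bp bins that passed the peak caller, with 780750 to 862731 bins per sample. These bins carried 10958459 to 14436573 IP reads and 8453517 to 10161917 input reads, and every value below is conditional on a bin having been listed. Of 8 melanocyte lineage markers, 6 had listed bins in both UACC-62 samples and 3 (MITF, MLANA and SOX10) in SK-Mel-103. Their summed input level, in RPKM (reads per kilobase of exon, scaled to the reads of the list), was 24.3 in SK-Mel-103 against 516 and 449 in UACC-62. PMEL and TYRP1 had no listed bin in any sample, and the 5 keratinocyte, fibroblast and leukocyte markers were at or near 0, with at most 0.0379 in sum for a cell type.

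The sequences of the GREs are given first, because they are the elements CELF1 is known to bind. The search used the 2 consensus elements below, each 11 nucleotides long, on the transcript strand of annotated 3′ UTRs, with up to 2 mismatches. Matching windows may overlap.
UG separated by UU: uguuuguuugu
alternating UG: ugugugugugu

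A GRE was found in the 3′ UTR of 8 of the 9 genes, compared with 55.3% of all 19708 protein-coding genes whose 3′ UTR is annotated, and EGLN2 had none. The 3′ UTRs of the 9 genes ran from 797 (EGLN2) to 3901 nucleotides (VHL), against a median of 1309 over all genes. ARNT had 17 matching windows in 4 separate stretches, VEGFA 10 windows in 2 stretches, and VHL 7 windows, each a stretch of its own. EPAS1 and EGLN1 had 4 windows each, EGLN3 had 3, and HIF1A and SLC2A1 had 1 each. A match without mismatch was found only in ARNT and VEGFA among the 9 genes, compared with 7.65% of all genes. The VEGFA windows were not in the 3′ UTR of its longest coding transcript, but in that of other annotated transcripts.

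The GREs below belong to the genes in which results are described by element. Each is the match with the fewest mismatches in its gene, or 1 of several such matches. A second VHL match, with 2 mismatches as 5 others of VHL, is added because it lies beside a bin with many IP reads. Capitals mark the bases that differ from the consensus, and all coordinates are of GRCh37. They lie at chr3:10195209-10195219 and chr3:10192460-10192470 (VHL, plus strand), chr14:62214748-62214758 (HIF1A, plus strand), chr1:150783936-150783946 (ARNT, minus strand), chr6:43753395-43753405 (VEGFA, plus strand) and chr1:43391940-43391950 (SLC2A1, minus strand).
VHL near the 3′ end: uguuuguuuUu
VHL in the first part of the 3′ UTR: uguuugAuuAu
HIF1A: uguuugAuuUu
ARNT: ugugugugugu
VEGFA: ugugugugugu
SLC2A1: uUuuugGuugu

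VHL, the substrate-recognition subunit of the ubiquitin ligase, was the only gene of the 7 tested that was called higher in IP than in input. HIF1A, EGLN2, SLC2A1 and EGLN1 were lower in IP, and ARNT and VEGFA were not called in either direction. The test was edgeR's quasi-likelihood test on reads summed over the listed exon bins, with the pair as a block and Benjamini-Hochberg adjustment over 9281 genes. Of the 7 genes tested, 1 was thus higher and 4 were lower, compared with 21.6% of all tested genes called higher and 41.3% called lower. The median fitted log2 IP over input was -0.52 for the 7 genes and -0.32 for all tested genes. EPAS1 and EGLN3 were not tested because at least 1 sample listed too few reads. In a fit without the pair as a replicate block, VHL was the one gene of the 7 still called (adjusted p = 0.040, edgeR).

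**Figure D1:**
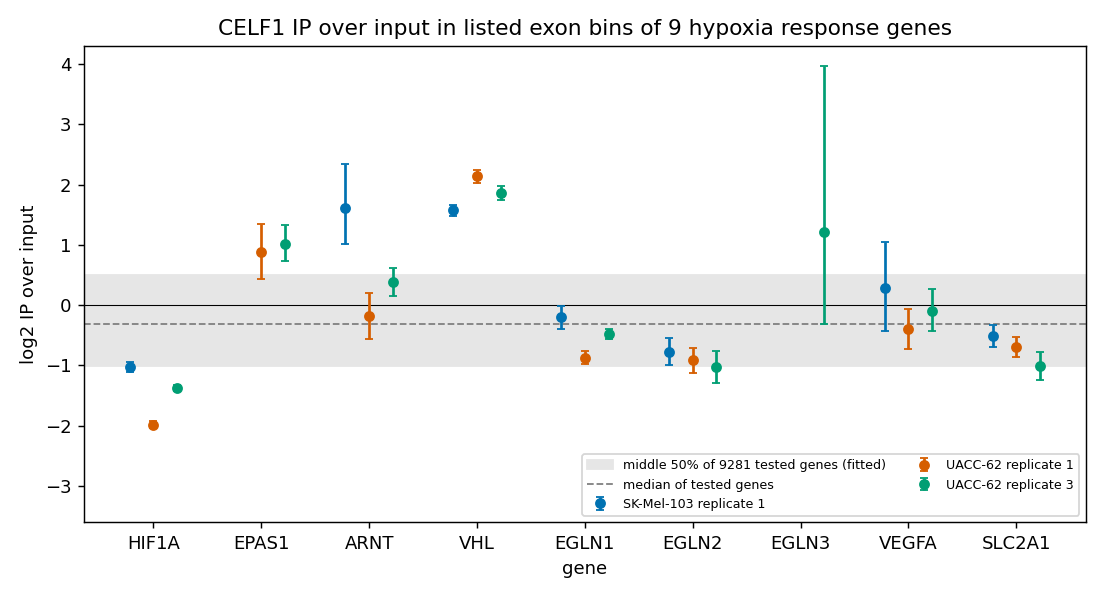
Log2 IP over input (y axis) of the 9 hypoxia response genes (x axis) in each of the 3 pairs, with 95% intervals that cover counting error. The grey band spans the middle 50% of the fitted values of all tested genes and the dashed line their median. VHL lies above the band in all 3 pairs and HIF1A at or below its lower edge, while EPAS1 has no SK-Mel-103 value and EGLN3 a single one.

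VHL was read from chr3:10183462-10195351 (plus strand, ENSG00000134086). The 3 pairs listed 5076, 4037 and 4000 IP reads of VHL beside 1314, 821 and 679 input reads. Scaled to the totals of the lists, its log2 IP over input was 1.57, 2.14 and 1.86. All 3 values lay above the upper quartile of tested genes in their sample (0.58, 0.43 and 0.62). The fitted difference was 1.86 ± 0.24 on the log2 scale (SE, n = 3 pairs), or 3.63-fold, with an adjusted p of 1.1e-08 (edgeR). It exceeded that of 95.3% of tested genes, and that of 97.3% of genes in the same decile of input level.

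The VHL signal lay in the 3′ UTR, which held 98.5%, 99.0% and 98.1% of the IP reads. The input was distributed alike, with 97.7%, 97.6% and 98.4% of its reads there. The 3′ UTR had a log2 IP over input of 1.59, 2.16 and 1.86, and the few coding bins one of 0.98, 0.77 and 1.97. The 3′ UTR thus exceeded the coding region by 0.61 and 1.39 in the first 2 samples, but not in UACC-62 replicate 3, with a difference of -0.11 and a 95% counting interval of -0.996 to 0.776. Coding bins of VHL rested on 39 to 78 IP reads.

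With the VHL 3′ UTR cut into 3 parts of equal length, the first part held 54.2%, 54.4% and 49.1% of the 3′ UTR IP reads. Its log2 IP over input was 1.83, 2.36 and 1.90, compared with 0.94, 1.56 and 1.61 in the middle part and 1.79, 2.46 and 2.09 in the last. The middle part was the lowest in each of the 3 samples. The 9 bins with the most IP reads over the 3 samples lay either in the first part or close to the annotated end of the gene, as the profile along the exons shows.

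The 2 VHL bins with the most IP reads are shown because they mark these places, at chr3:10195141-10195160 and chr3:10192481-10192500. The first had 136, 107 and 114 IP reads beside 23, 11 and 6 input reads, and the second had 156, 122 and 71 beside 35, 13 and 11. Neither overlapped a GRE.
VHL bin near the 3′ end: aacaugccguuugaguacug
VHL bin in the first part of the 3′ UTR: gacaaauaaguuuuugcuaa

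**Figure D2:**
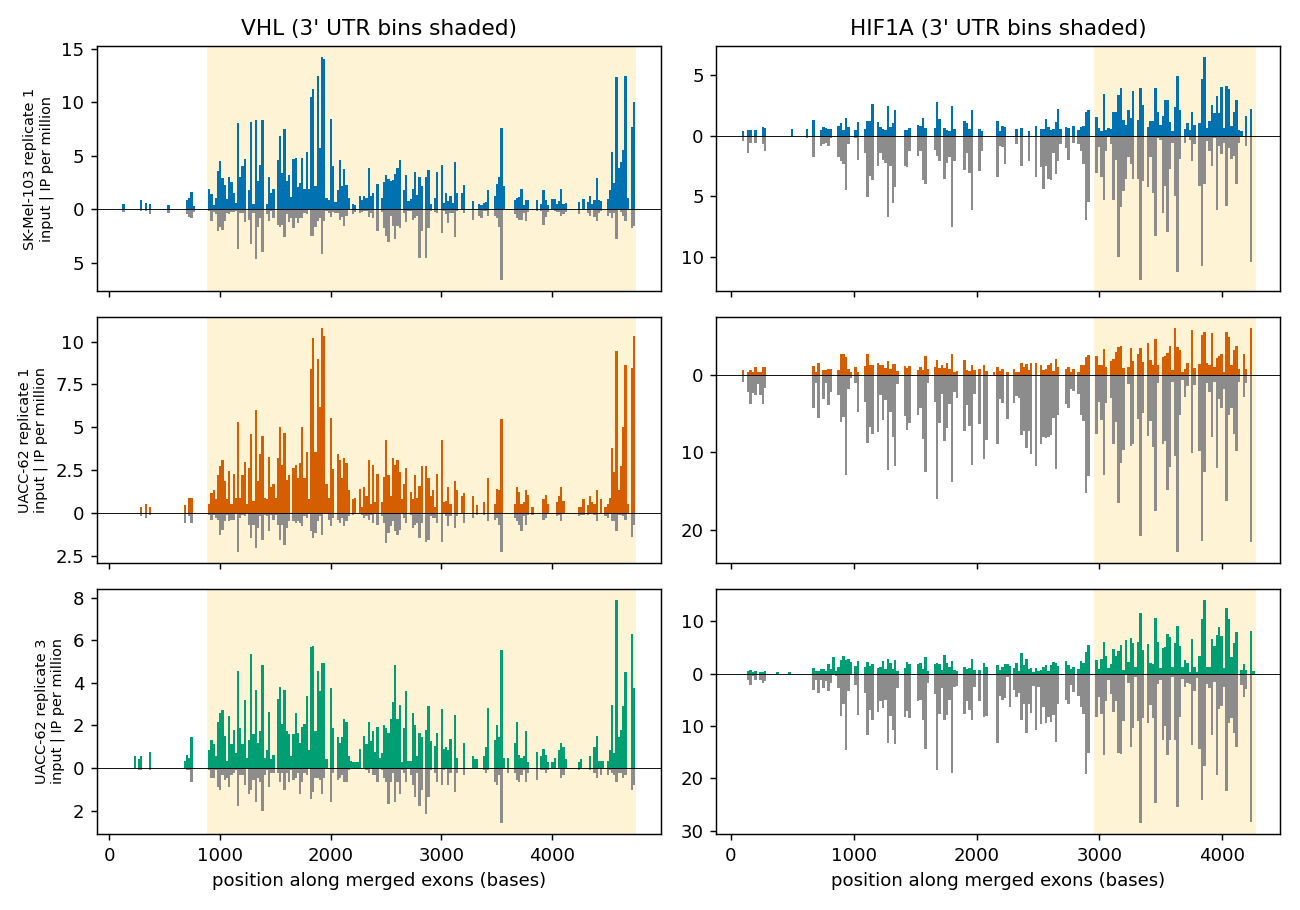
IP reads (colour, upward) and input reads (grey, downward), each scaled to the total of its column, in the listed 20-bp bins of VHL (left) and HIF1A (right) along their merged exons, in bases, for the 3 pairs, with the 3′ UTR shaded. The scales differ between panels. VHL reads pile up in the first part and at the very end of the 3′ UTR with little input, and HIF1A input exceeds IP over most of the transcript.

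Bins of the VHL 3′ UTR that overlapped a GRE by at least 1 base numbered 8 or 9 per sample. They had 462, 383 and 284 IP reads and 67, 37 and 41 input reads, and their log2 IP over input was 2.39, 3.18 and 2.06. The other 3′ UTR bins of VHL gave 1.52, 2.08 and 1.84. The bins with a GRE were higher in each sample, but in UACC-62 replicate 3 their interval (1.62 to 2.60) held the value of the other bins. Most GREs of VHL lay outside the middle part of its 3′ UTR, the part with the lowest values. Element and position were therefore not separated, and this comparison within 1 transcript was not tested.

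Some of the VHL 3′ UTR is repeated elsewhere in the genome, and the 32 bases around the centre of 39 of its 183 listed bins occurred more than once, up to 25817 times. Reads from such bins cannot be assigned to VHL with certainty. With single-copy bins only, log2 IP over input was 1.56, 2.13 and 1.88. The values were therefore as large without the repeated bins. Copies were counted only where all 32 bases matched, so bins with near copies elsewhere may remain.

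HIF1A, the alpha subunit broken down through VHL, had by far the most input reads of the set. Its IP reads numbered 2044, 2773 and 6466 beside 3198, 9809 and 10353 input reads. The resulting log2 IP over input was -1.02, -1.98 and -1.38, below 0 in each sample. The fitted difference was -1.46 ± 0.24 (SE, n = 3 pairs, adjusted p = 1.6e-06, edgeR), and it exceeded that of 12.6% of all tested genes. Among the decile of genes with the highest input level, whose median was -1.58, it exceeded 55.9%.

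Within HIF1A (chr14:62162231-62214977, plus strand, ENSG00000100644), the 3′ UTR stood above the coding region in all 3 pairs. The 3′ UTR gave a log2 IP over input of -0.76, -1.57 and -0.94, and the coding region one of -1.39, -2.45 and -1.96. The differences of 0.63, 0.88 and 1.02 had 95% counting intervals above 0, with lower limits of 0.47, 0.75 and 0.93. The median difference over all genes with both regions was 0.29, 0.27 and 0.21, so that HIF1A ranked above 67.6%, 75.1% and 84.8% of them. The 3′ UTR held 61.8%, 58.9% and 65.0% of the IP reads of HIF1A but 51.7%, 44.4% and 48.0% of its input reads.

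The bin of HIF1A with its single GRE is shown with the element in view, at chr14:62214741-62214760. It had 42, 55 and 152 IP reads beside 9, 52 and 84 input reads. Its log2 IP over input was 1.73, -0.08 and 0.15, compared with -0.80, -1.60 and -0.97 in the other 3′ UTR bins of HIF1A. It was the higher in each sample, with intervals that did not reach the value of the other bins (the lower limits were 0.79, -0.65 and -0.24). This is 1 bin and was not tested.
HIF1A bin with the GRE: aauacaauguuugauuuuau

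A peak common to the 3 lists was taken as a bin with more than 30 IP reads at the same position and strand in each. VHL had 32 and HIF1A 13 such bins, all in their 3′ UTRs, and the other 7 genes had none. A common bin was found in 13.2% of the 13140 genes with a listed exon bin. The HIF1A bin with the GRE and 4 VHL bins with a GRE were among them. A common bin does not require IP above input, as HIF1A shows, and depends on how many reads a gene has.

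EPAS1, which encodes the second alpha subunit, had no listed exon bin in SK-Mel-103 (chr2:46520806-46613836, plus strand, ENSG00000116016). The 2 UACC-62 replicates listed 128 and 411 IP reads beside 62 and 124 input reads. EPAS1 log2 IP over input was 0.88 and 1.02, with a mean of 0.95 ± 0.10 (SD, n = 2). Both intervals lay above 0 (0.44 to 1.35 and 0.74 to 1.33), and 88.3% and 92.0% of the IP reads were in the 3′ UTR. EPAS1 had little input, and its values were not set against genes of a like input level. The median fitted value of tested genes was 0.90, 0.33 and -0.01 in the 3 lowest deciles of input level. Since a bin without enough IP reads is not listed, the lists give no level for EPAS1 in SK-Mel-103.

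ARNT encodes the partner of both alpha subunits (chr1:150782189-150849184, minus strand, ENSG00000143437). The 3 pairs listed 102, 119 and 471 IP reads of ARNT beside 25, 121 and 223 input reads. This gave log2 IP over input of 1.61 for SK-Mel-103 and of -0.18 and 0.38 for UACC-62, with a UACC-62 mean of 0.10 ± 0.40 (SD, n = 2). The SK-Mel-103 value lay above both UACC-62 values, and its interval of 1.01 to 2.35 did not overlap theirs. Over all 3 pairs the fitted difference was 0.51 ± 0.26 (SE, adjusted p = 0.084, edgeR). It was 0.87 under TMM scaling (adjusted p = 0.012, edgeR), 0.93 with DESeq2 (adjusted p = 0.0045) and 0.91 without UACC-62 replicate 1 (adjusted p = 0.023, edgeR), each of them a call, but 0.14 without SK-Mel-103 (adjusted p = 0.54, edgeR). The sign in UACC-62 replicate 1 turned under TMM scaling (0.37).

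ARNT was the 1 gene of the 7 whose IP over input differed between the cell lines, compared with 4.62% of all tested genes. SK-Mel-103 exceeded UACC-62 by 1.51 ± 0.42 on the log2 scale (SE, adjusted p = 0.018, edgeR interaction term), or 1.23 more than the median gene. The SK-Mel-103 side rests on 1 pair, assumed to vary as the UACC-62 pairs do. ARNT input was also lower there, at 0.607 RPKM against 2.44 and 5.14, and the part of this in the difference was not tested.

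The bins of ARNT were largely not the same in the 3 samples, since 4 of its 75 listed bins were in all 3 lists. In these 4 bins, log2 IP over input was 1.71, -0.09 and -0.29, so that the line difference had the same direction and the value of UACC-62 replicate 3 changed sign. The long UG repeat of ARNT drew few listed reads. Its GRE bins were not listed for SK-Mel-103 and held 5 and 20 IP reads beside 9 and 9 input reads in the UACC-62 replicates, with 1 of the 3 bins occurring 38 times in the genome.

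EGLN1, EGLN2 and EGLN3 encode the hydroxylases that mark the alpha subunits for VHL. EGLN1 (chr1:231499497-231558033, minus strand, ENSG00000135766) had 478, 1176 and 2390 IP reads beside 424, 1929 and 2050 input reads. On the log2 scale its IP over input was -0.20, -0.87 and -0.48, below 0 in each sample. The fitted difference of -0.52 ± 0.23 (SE, n = 3 pairs) was close to the threshold, with an adjusted p of 0.046 (edgeR), and was only 0.20 below the median gene. Under TMM scaling the adjusted p was 0.36, without UACC-62 replicate 1 it was 0.27 and without replicate 3 it was 0.26.

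Of the 143 listed EGLN1 bins, 129 also lay in an exon of another annotated gene on the same strand. Reads in them cannot be told apart between the genes. In the remaining bins, with 8, 25 and 114 IP reads, log2 IP over input was -0.01, -0.63 and 0.27, and the fitted difference was -0.09 (adjusted p = 0.84, edgeR). Its input level of 43.7 and 53.1 RPKM in UACC-62 was second to HIF1A.

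EGLN2 (chr19:41304901-41314339, plus strand, ENSG00000269858) had 288, 309 and 213 IP reads beside 379, 523 and 267 input reads. EGLN2 log2 IP over input was -0.77, -0.91 and -1.02, and the 3 values were closer to each other than those of any other gene called. The fitted difference was -0.90 ± 0.22 (SE, n = 3 pairs, adjusted p = 0.00052, edgeR), and without UACC-62 replicate 3 the adjusted p was 0.063. Here 61 of 66 listed bins were shared with another annotated gene on the same strand, and too few reads were left without them for a test.

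Unlike HIF1A, EGLN2 was lower in its 3′ UTR than in its coding region. The log2 difference was -0.56, -0.46 and -0.77, with all 3 counting intervals below 0. This placed it above 12.2%, 15.7% and 10.5% of genes with both regions. These values include the bins shared with another gene. EGLN2 has no GRE, and a link between this and the difference was not tested. SLC2A1, which has a GRE, was also lower in its 3′ UTR.

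EGLN3 (chr14:34393433-34931980, minus strand, ENSG00000129521) had 3 listed bins, all in its 3′ UTR and all in UACC-62 replicate 3. They held 14 IP and 3 input reads, and no comparison was made.

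Both targets of the pathway in the set had modest values. SLC2A1 (chr1:43391024-43424564, minus strand, ENSG00000117394) had 460, 480 and 274 IP reads beside 506, 696 and 341 input reads. SLC2A1 log2 IP over input was -0.51, -0.69 and -1.01, below 0 in each. The fitted difference was -0.74 ± 0.22 (SE, n = 3 pairs, adjusted p = 0.0041, edgeR). Under TMM scaling the adjusted p was 0.062, and without UACC-62 replicate 3 it was 0.19.

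SLC2A1, like EGLN2, was lower in its 3′ UTR than in its coding region, with log2 differences of -0.46, -0.42 and -0.63 and counting intervals below 0 in the 3 samples. The 1 bin that bordered its GRE had 6, 13 and 9 IP reads.

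VEGFA (chr6:43737921-43754224, plus strand, ENSG00000112715) had 43, 141 and 177 IP reads beside 27, 166 and 116 input reads. VEGFA log2 IP over input was 0.28, -0.39 and -0.09, on both sides of 0. The fitted difference was -0.11 ± 0.25 (SE, n = 3 pairs, adjusted p = 0.72, edgeR), and its sign turned under TMM scaling (0.26). The bins that overlapped its UG repeat held 4, 18 and 19 IP reads beside 2, 17 and 9 input reads. At this depth their log2 IP over input (0.36, -0.08 and 0.30) could not be told from that of the other 3′ UTR bins (0.06, -0.42 and -0.27).

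**Figure D3:**
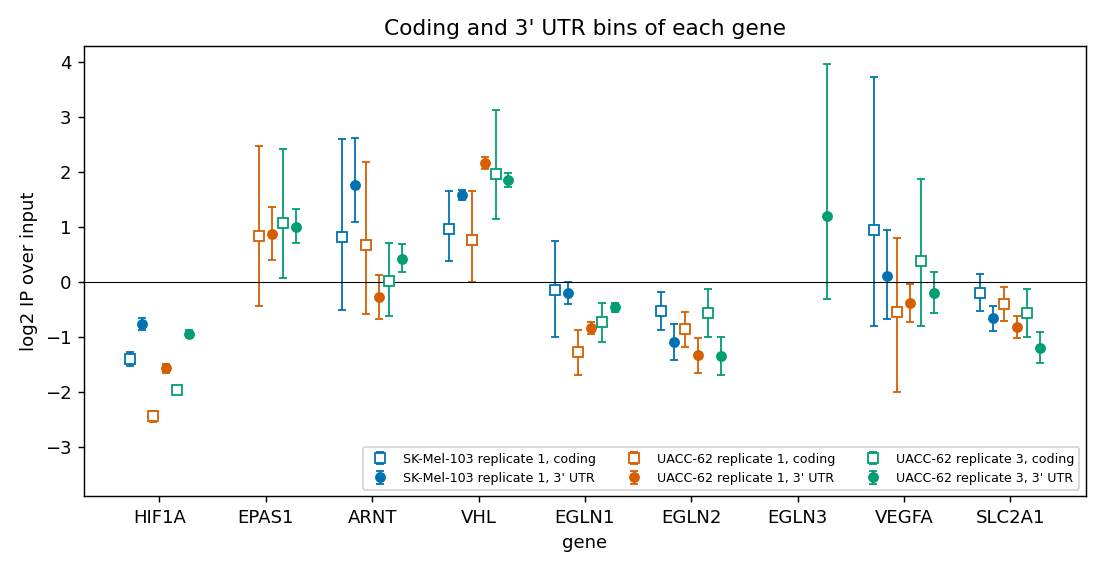
Log2 IP over input (y axis) of coding bins (open squares) and 3′ UTR bins (filled circles) of each gene (x axis) in the 3 pairs, with 95% counting intervals, where at least 10 reads were listed. The 3′ UTR lies above the coding region in HIF1A and below it in EGLN2 and SLC2A1 in all 3 pairs.

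By input level in RPKM, HIF1A led the set in UACC-62 with 248 ± 32.7 (SD, n = 2), followed by EGLN1 with 48.4 ± 6.60 and VHL with 16.4 ± 0.665. SLC2A1 (14.4 ± 5.77) and EGLN2 (11.9 ± 4.44) overlapped each other, and SLC2A1 overlapped VHL. VEGFA (3.90 ± 0.619), ARNT (3.79 ± 1.91) and EPAS1 (1.90 ± 1.05) followed, with ARNT overlapping both neighbours. In SK-Mel-103 the order was HIF1A (88.3), VHL (32.5), SLC2A1 (16.2), EGLN2 (13.1), EGLN1 (11.6), VEGFA (0.847) and ARNT (0.607). VHL was thus the one gene whose SK-Mel-103 input level lay above both UACC-62 values, while HIF1A, EGLN1, VEGFA and ARNT lay below both. These levels count listed bins only, and in such bulk samples fewer cells with an RNA and less of it per cell cannot be told apart.

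IP over input was related to the input level across all genes, which share a term in both measures. The median fitted log2 IP over input was 0.90 in the decile of genes with the lowest input level and -1.58 in the decile with the highest. Against genes of the same decile, SLC2A1 exceeded 50.4%, EGLN2 40.9% and EGLN1 67.9%. The 4 genes called lower in IP were therefore near the middle of genes with a like input level, and VHL was far above it. ARNT exceeded 78.6% and VEGFA 59.2% of genes in their decile.

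**Figure D4:**
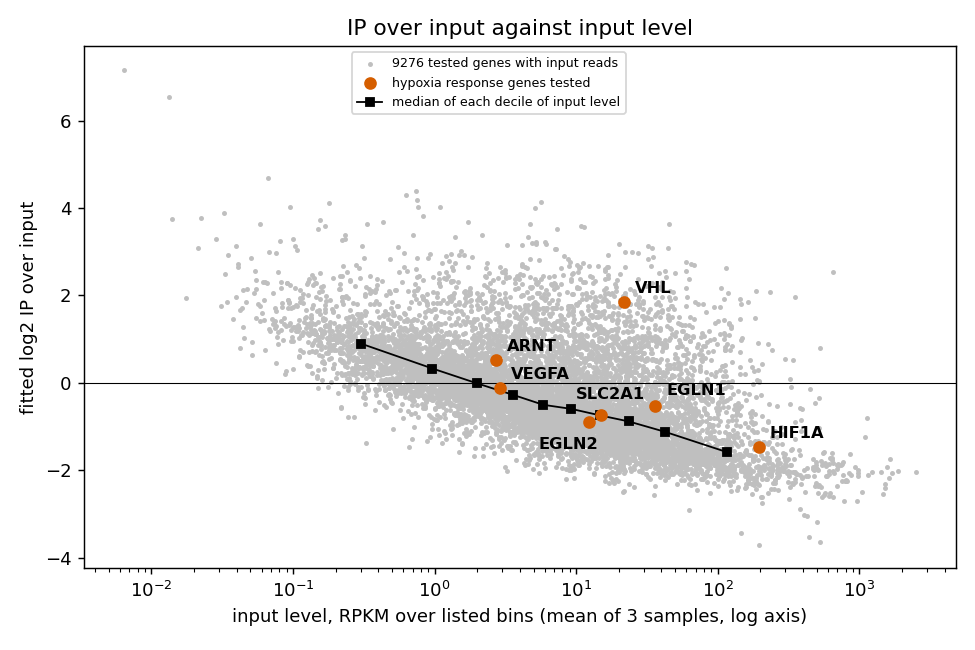
Fitted log2 IP over input (y axis) against the mean input level of the 3 samples (x axis, log scale, RPKM over listed bins) for tested genes (grey), with the 7 tested hypoxia response genes in orange. Black squares join the medians of the deciles by input level. VHL stands well above the squares at its level, and the 4 genes called lower lie close to them; 5 tested genes without input reads cannot be drawn.

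Other genes of the pathway were given as 2 lists. Of 10 further regulators, 9 were tested, with 4 higher and 3 lower in IP, beside shares of 21.6% higher and 41.3% lower over all tested genes. Their median was 0.08, against -0.32 for all tested genes. HIF1AN, the asparaginyl hydroxylase that blocks the activity of the alpha subunits, was the highest at 3.07 ± 0.25 (SE, adjusted p = 3.6e-13, edgeR). Its log2 IP over input was 2.74, 3.23 and 3.22, it had 64 common bins, and it exceeded 99.4% of tested genes. CITED2, a competitor of the alpha subunits for the coactivator p300, was 1.21 ± 0.24, and RBX1, the RING subunit of the VHL ligase, was 1.09 ± 0.23. ARNT2, a relative of ARNT, was the fourth gene called higher.

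The other subunits of the VHL ligase were called lower in IP, as were 41.3% of all tested genes. Their values were not set against genes of a like input level. ELOC, one of the elongins that bind VHL, was -1.97 ± 0.24, ELOB, the other elongin, was -1.92 ± 0.24, and CUL2, its scaffold, was -1.02 ± 0.23. All 3 were lower in IP (adjusted p of 6.3e-09, 7.5e-09 and 0.00018, edgeR). EP300 and CREBBP were not called, and HIF3A was not tested.

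Of 24 further targets, 19 were tested, with 5 higher and 9 lower and a median of -0.16. These counts are close to the shares over all tested genes (21.6% higher and 41.3% lower). The highest were P4HA2, a collagen prolyl hydroxylase (1.22 ± 0.23), DDIT4, an inhibitor of mTORC1 signalling (1.02 ± 0.25), and BHLHE40, a transcriptional repressor (0.83 ± 0.23). The lowest were the glycolytic enzymes LDHA (-2.24 ± 0.24), ENO1 (-1.99 ± 0.25) and PGK1 (-1.97 ± 0.25). None of these targets was set against genes of a like input level. A common bin was found in 6 of the 23 further targets with a listed exon bin, compared with 13.2% of all such genes. They were PGK1, LDHA, BNIP3, HK2, ENO1 and ALDOA, of which PGK1, LDHA, ENO1 and ALDOA were called lower in IP. Among the 10 further regulators, HIF1AN, ELOC and RBX1 had a common bin. Between the cell lines, 4 of the 19 targets differed, compared with 4.62% of all tested genes, all higher in SK-Mel-103 as ARNT was. They were NDRG1 (1.85), P4HA1 (1.57), PDK1, a kinase that inhibits pyruvate dehydrogenase (1.49), and PFKFB4 (1.47), with adjusted p of 0.0065 to 0.026 (edgeR interaction term), again with 1 SK-Mel-103 pair. The median gene also leaned towards SK-Mel-103, and the values of these 4 targets were not set against it. None of the 9 tested regulators was called between the lines. The scale of the fitted values matters for the counts. TMM scaling moved the median of all genes by 0.34 and left 7 targets higher and 5 lower, and it changed the share of higher among all calls from 34.3% to 49.4%.

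**Figure D5:**
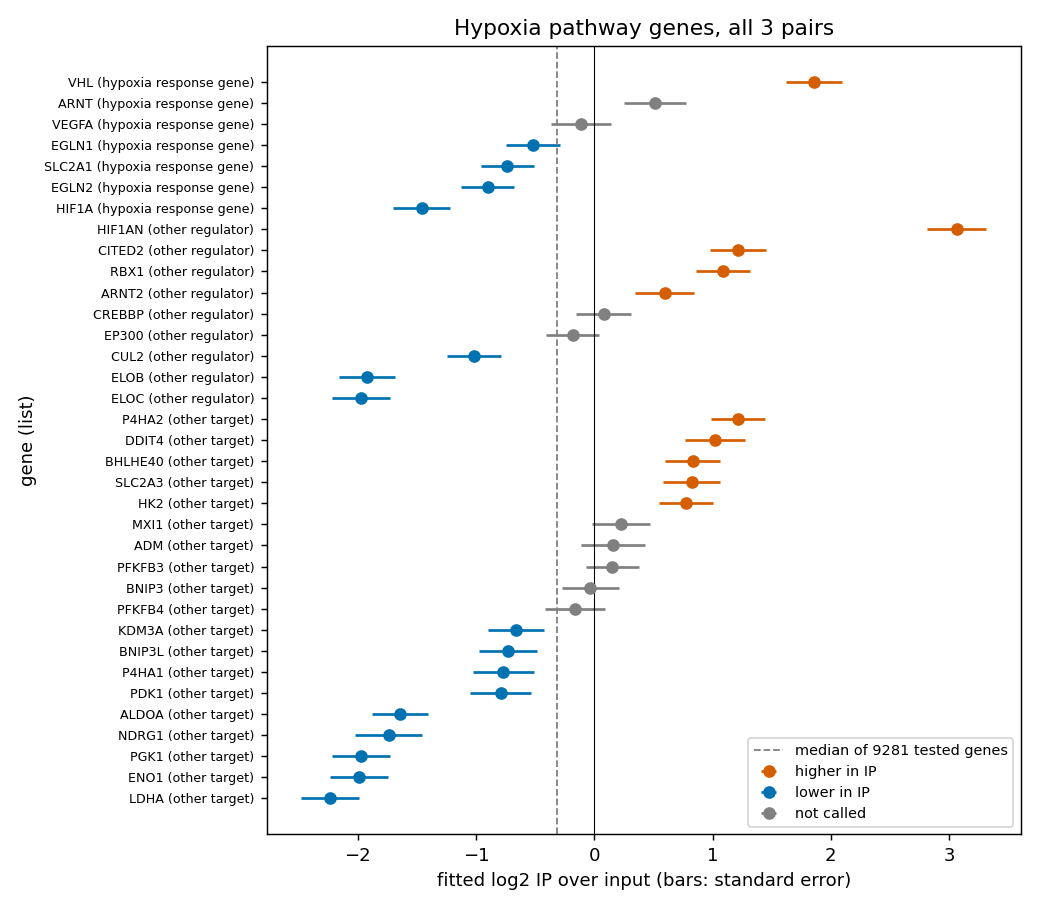
Fitted log2 IP over input (x axis) with its standard error for each tested hypoxia response gene, other regulator and other target (y axis), coloured by call at an adjusted p under 0.05 (edgeR). The dashed line is the median of all tested genes. HIF1AN and VHL are the 2 highest of the 35 genes, and LDHA is the lowest.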

How the data were processed

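RIP-Seq data of 3 IP samples, each with its own input, were analysed. Per the labels, TopHat2 2.0.4, Bowtie 0.12.7 and SAMtools 0.1.16 were named in the submitters' processing notes, with build GRCh37, while the paper's methods name later TopHat and Bowtie versions. The authors called bins of 20 bp with Piranha on a zero-truncated Poisson regression. The deposited counts give the IP reads of each listed bin as whole numbers, unscaled. The p-value deposited by the authors is under 0.05 in every listed bin. The paper's methods give 0.05 as the false discovery rate of these peaks, but the column does not say whether its values are adjusted. The ratio deposited by the authors in the last column holds the input reads divided by a fixed number, 0.01 where there were none. Input reads were recovered from it, all whole within 0.1. Depth is given as reads in listed bins, and 9.69% to 29.2% of bins had no input.

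Bins were placed on exons of protein-coding genes (GENCODE version 44, mapped to GRCh37) by their centre, on the reverse of the listed strand. Reads were summed per gene. A gene was tested with at least 10 IP plus input reads in each pair, by the quasi-likelihood test of edgeR 4.0.16, with column totals as library sizes and the pair as a block, since each list sets an IP against the input of the same lysate. Samples of a pair deviated together, with correlations of 0.879 to 0.931 across genes. Log2 IP over input used a pseudocount of 1 read. The 95% intervals came from exact binomial intervals, or for differences between regions from a normal approximation on log odds, and cover counting error only, as PCR copies were not marked. Genes, lists and tests were chosen with earlier results of these data known. All 9 genes are named, and of the other 2 lists the 3 highest and 3 lowest called genes, with the rest by count or name. Alternatives of scaling, tool, pair block, filter, read minimum, region and strand, leaving out each pair, single-copy bins and bins in all 3 lists were tried, the last 2 chosen after seeing the data. DESeq2 1.42.0, limma 3.58.1, R 4.3.3, Python 3.11.15 and bedtools 2.31.1 were used. In simulated counts of 9281 genes, 78 of 100 genes changed by 1 on the log2 scale, 100 of 100 changed by 2, and 6 of 9081 unchanged genes were called. PECAM1 was not in the annotation used.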

Additional observations from a re-analysis of the deposited data

Results flagged for a closer look

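ARNT was the one gene of the 7 tested in the set whose IP over input was called different between the cell lines. Of 19 further targets of the pathway, 4 (NDRG1, P4HA1, PDK1 and PFKFB4) were called in the same direction. None of the 9 tested regulators was called, and the share over all tested genes was 4.62%. The ARNT difference was 1.23 more than that of the median gene, which itself leaned towards SK-Mel-103. SK-Mel-103 exceeded UACC-62 by 1.51 on the log2 scale (adjusted p = 0.018, edgeR interaction term), with log2 IP over input of 1.61 in the 1 SK-Mel-103 pair and of -0.18 and 0.38 in the 2 UACC-62 pairs. The test takes its spread from the UACC-62 pairs and the trend across genes, since a single SK-Mel-103 pair has none of its own. It was 1.23 (adjusted p = 0.028) under TMM scaling and 1.69 (adjusted p = 0.018) with 3′ UTR bins only. Without UACC-62 replicate 1 it was 1.27 and without replicate 3 it was 1.83, both without a test.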

How the results depend on the processing

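The count of 1 gene higher in IP (VHL) became 2 under TMM scaling, DESeq2 (each adding ARNT) and no gene filter (adding EPAS1), and 0 on the listed strand; leaving out 1 pair gave 1 to 2. The count of 4 genes lower became 2 under TMM scaling, DESeq2 and without bins shared with another gene, 1 with bins of more than 30 IP reads, 0 on the listed strand and 0 with no replicate block, where 1 gene stayed higher in this unpaired fit. Leaving out 1 pair gave 1 to 4. Without UACC-62 replicate 3, EGLN1, EGLN2 and SLC2A1 lost their calls, and without replicate 1, EGLN1 did and ARNT was called higher (0.91, adjusted p = 0.023, edgeR). Without SK-Mel-103, EPAS1 was called higher. A common bin was found in 2 genes, in 7 without a read filter, in 1 (VHL) above 100 IP reads and in 0 on the listed strand. A GRE was found in 8 genes, in 4 with 1 mismatch and in 2 with none.

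The sign turned for VEGFA under TMM scaling (0.26), DESeq2 (0.30) and without UACC-62 replicate 1 (0.072, the highest of a range from -0.24 over the pairs left out), and in its values for UACC-62 replicates 1 and 3 under TMM (0.16 and 0.24). TMM turned ARNT in UACC-62 replicate 1 (0.37). It turned for the line difference of EGLN2 under TMM (-0.10), for ARNT in UACC-62 replicate 3 in bins of all 3 lists (-0.29), and without shared bins for EGLN1 in UACC-62 replicate 3 (0.27) and EGLN2 in UACC-62 replicates 1 (3.23, from 41 IP and 3 input reads) and 3 (1.62, from 4 IP reads). The causes were not tested. Of 72 fitted values under an alternative, 51 kept direction and side of the threshold. Over all genes, 2007 were higher and 3837 lower, compared with 2870 and 2936 under TMM, 2703 and 2638 under DESeq2, and 285 and 507 with no replicate block. SK-Mel-103 had 1 pair, so its own spread is unknown, and EPAS1, EGLN3, ARNT and VEGFA had few reads.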

Other observations

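AUUUA pentamers, the core of AU-rich elements that other RNA-binding proteins recognise, were found in the 3′ UTR of 8 of the 9 genes, compared with 69.5% of all genes with a 3′ UTR. VEGFA had 10, EGLN3 had 9, HIF1A had 8, EGLN1 had 7 and ARNT had 6, whereas EGLN2 had none. VHL, the tested gene called higher in IP, had 3.

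Listed bins on the strand opposite to the exons were few. VHL had 9 such bins, with 35, 46 and 21 IP reads in the 3 pairs. HIF1A had 6, with 27 IP reads in SK-Mel-103 and none in UACC-62, and EGLN1 had 1 with 4 reads. The other 6 genes had none.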
